A study of Caenorhabditis elegans with 46 samples.

Results

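Pharyngeal and body wall muscle of Caenorhabditis elegans were compared through the microRNAs that each kept after periodate oxidation. The comparison used 8 of the 46 small RNA libraries of the study, all from whole larvae of the L1 stage. Oxidised and untreated libraries came from 2 transgenic lines with myo-2:Ath-HEN1 (MLC528 and MLC529) and from 2 lines with myo-3:Ath-HEN1 (MLC900 and MLC901). All 4 lines carried henn-1(0), a null allele of the gene for the endogenous methyltransferase of small RNA, so that none of the 4 groups had this activity. The myo-2 promoter is active in pharyngeal muscle and the myo-3 promoter in body wall muscle. Each group (a driver with or without oxidation) held 2 libraries, 1 per line. The measurement was the difference between drivers in the oxidation effect, which is log2 of oxidised over untreated counts, and it was taken for every worm microRNA arm. The files listed 473 worm arms, of which 446 had at least 1 count in the 8 libraries and 395 passed the filter on low counts and were tested.

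The method rests on how plant and animal microRNAs differ at their 3' end. Plants methylate that end with HEN1, whereas animal microRNAs usually leave it free. Periodate oxidises a free end so that the molecule can no longer be ligated into a library, and a methylated end is spared. Where the plant enzyme Ath-HEN1 is made in a single cell type, the microRNAs of that cell type are therefore the ones expected to survive. The pharynx is the feeding pump of the worm and its muscle cells form a separate organ at the front. Body wall muscle lies in strips along the body and drives movement. Both express miR-1, a microRNA conserved in animal muscle.

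Oxidised myo-2 libraries held 2711940 and 4499753 counts, and their untreated partners held 10674772 and 13015125. Oxidised myo-3 libraries held 10050574 and 10722045 counts, and their untreated partners held 23481082 and 13983993. The oxidised myo-2 libraries were thus the shallowest, which limits the precision of arms with few counts there. Correlations of log2 counts between the 2 lines of a group were 0.978 to 0.989. The 5 most abundant arms took 69.6% and 65.9% of the counts in oxidised myo-2 libraries, and 67.4% and 70.3% in oxidised myo-3 libraries. Library numbers in the labels lie apart for the drivers (42753 to 42756 with myo-2, 49405 to 49408 with myo-3). The labels do not say what these numbers mark, and a difference in preparation cannot be told apart from the driver. Because the RNA came from whole worms, fewer cells of a type and less RNA per cell cannot be told apart either.

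The drivers kept different microRNAs. After oxidation miR-72-5p, miR-236-3p and both arms of miR-251 were many times more abundant with myo-2, whereas miR-86-5p, miR-50-5p and the arms of miR-231 and miR-794 were many times more abundant with myo-3. In all, 109 of the 395 arms (27.6%) differed in the oxidation effect at an adjusted p under 0.05 in edgeR's quasi-likelihood test, and these are called below. An arm that was not called is not shown to be alike with both drivers. Of these, 65 were higher with myo-2 (16.5% of arms tested) and 44 were lower with myo-2 (11.1%). The median difference over all 395 arms was 0.33. Size factors of another kind (RLE) lowered the difference of an arm by 0.46 in the median over arms. They changed the split to 51 higher and 66 lower, so that 43.6% of called arms were higher in place of 59.6%. The differences named below as called are larger than this shift, but some of them lost their call with RLE size factors, as given there.

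The effects were also set out line by line. The 2 myo-2 lines lay wholly above the 2 myo-3 lines for 164 arms (41.5% of arms tested) and wholly below for 92 (23.3%). Calls and lines rest on the same libraries, so a count of both together is a description. Among the called arms the lines did not overlap for 108, of which 64 were higher and 44 lower. The exception was miR-76-5p, named here after its values were seen, whose difference was -0.25 without 42754 and 4.07 without 42756. 11 of the called arms were at 0 counts in a group, and for these a bound is given, computed by setting the sum of that group to 3 counts. The bound allows no counting error in the other groups.

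The effects in each driver show how the difference came about. With myo-2, 81 arms rose on oxidation (20.5%) and 183 fell (46.3%), relative to the scaled library. With myo-3, 74 arms rose (18.7%) and 201 fell (50.9%). A total of 38 arms rose with both drivers and 143 fell with both. Opposite calls were made for 29 arms: 12 rose with myo-2 and fell with myo-3, and 17 fell with myo-2 and rose with myo-3. All 12 were called higher and all 17 lower in the difference. The 17 include miR-8211-5p, with 9 untreated myo-2 counts and none after oxidation, too few for its bound to reach a fall with myo-2. Of the 143 arms that fell with both, 14 were called higher and 9 lower.

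**Figure D1:**
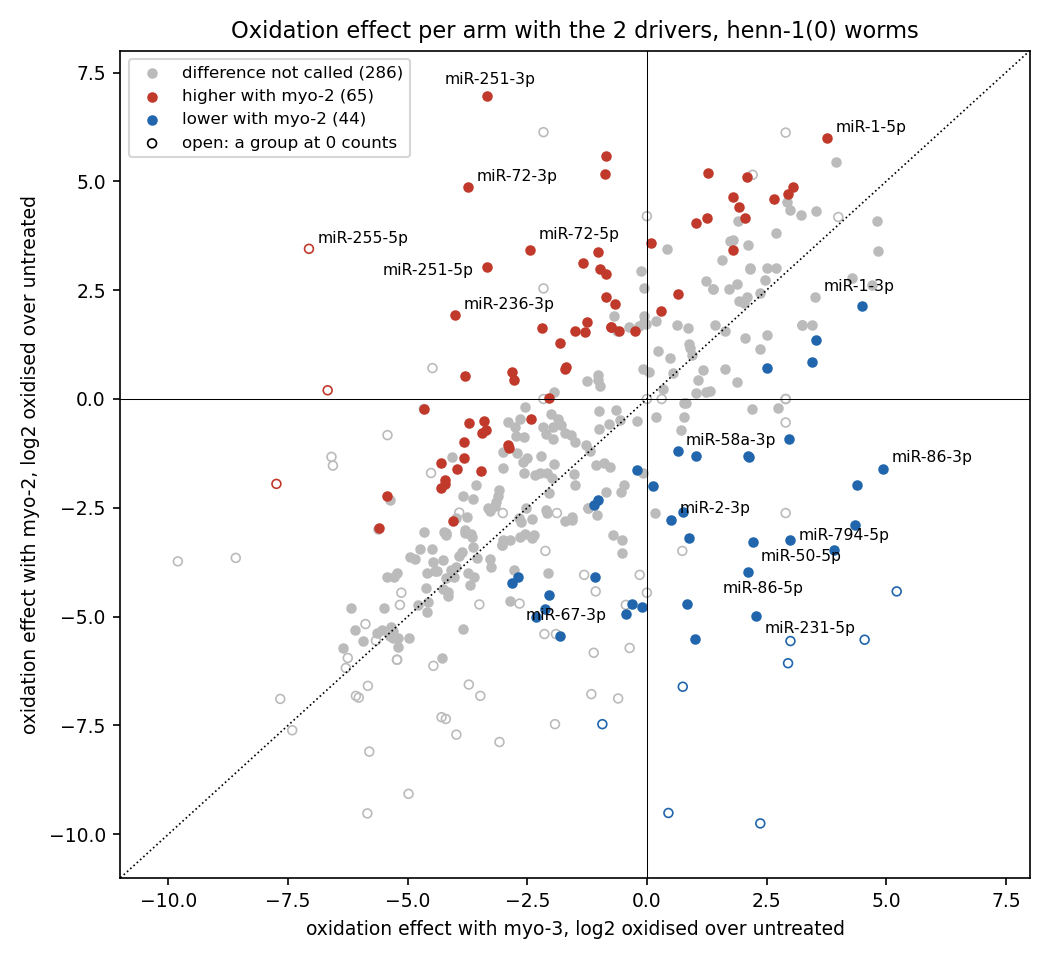
Oxidation effect of each of the 395 arms tested, with myo-2 on the vertical and myo-3 on the horizontal axis (both log2 oxidised over untreated, from the fit to all libraries). Red arms were called higher and blue arms lower with myo-2, open symbols have a group at 0 counts and a position that depends on the fit, and the dotted line marks equal effects; miR-72-5p stands at 3.43 with myo-2 and -2.44 with myo-3, and miR-86-5p at -3.97 with myo-2 and 2.11 with myo-3.

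Before oxidation the drivers' libraries differed far less. No arm was called between untreated myo-2 and untreated myo-3 libraries (0% of 395), with 42 arms at an unadjusted p under 0.05 in edgeR and 1 arm, miR-1-5p, called by DESeq2. Leaving out library 42753, 42754 or 42756 in edgeR also gave 1 call. After oxidation 84 arms were higher with myo-2 (21.3%) and 76 lower (19.2%). The size of the difference between drivers had a median of 1.39 on the log2 scale in oxidised libraries and 0.40 in untreated libraries. Oxidised libraries were shallower than their untreated partners, and 75 of the 395 arms were at 0 counts in at least 1 of the 4 groups. Fitted values of these arms enter the medians. What part depth has in the contrast was not tested. Of the 109 arms called in the difference of effects, 106 were also called the same way between oxidised libraries alone. These contrasts share libraries and are not independent of each other.

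**Figure D2:**
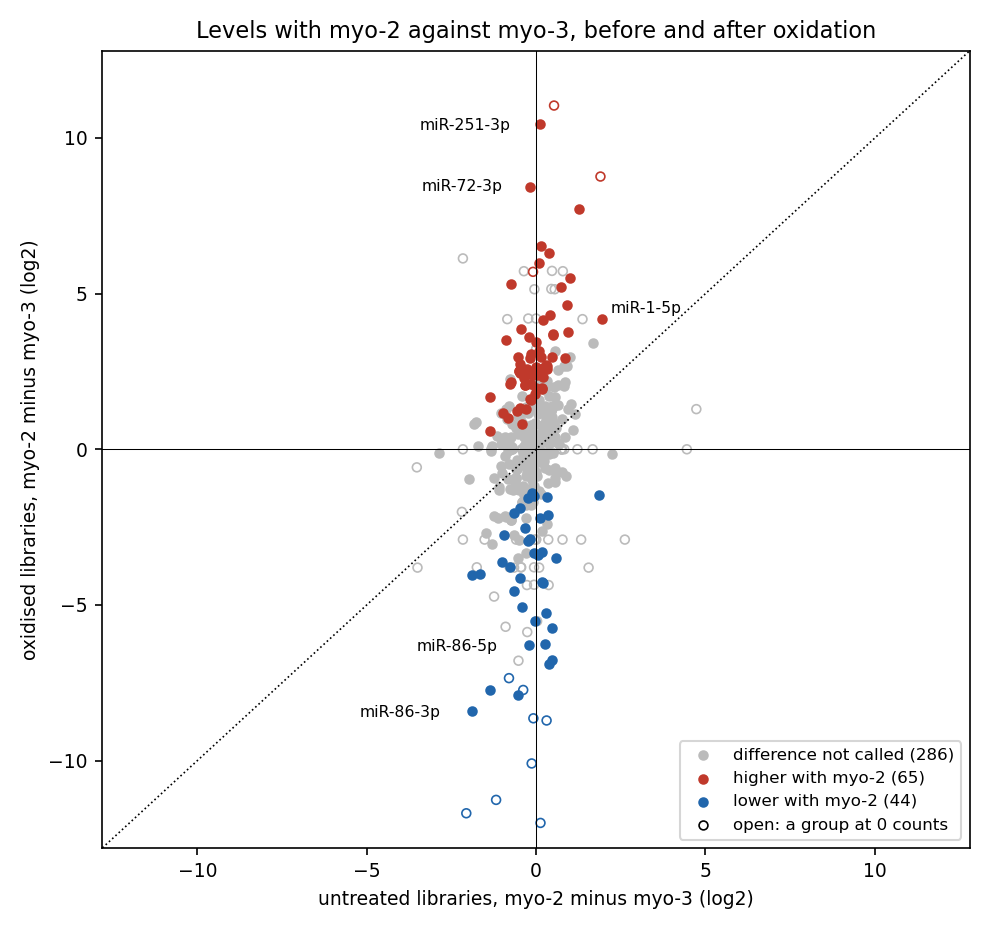
Difference between drivers (log2, myo-2 minus myo-3) of each arm in oxidised libraries on the vertical axis and in untreated libraries on the horizontal axis, coloured by the call on the difference of oxidation effects. The arms spread along the vertical axis and little along the horizontal one; miR-72-3p stands at 8.43 in oxidised and -0.17 in untreated libraries, and miR-1-5p at 4.19 in oxidised and 1.96 in untreated libraries.

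miR-1 represses its targets in muscle of both kinds and lies on chromosome I (6172662 to 6172757 in WBcel235, minus strand, between genes). Its major arm, miR-1-3p, had 266000 and 242000 CPM (counts scaled to a common library size with TMM factors) in oxidised myo-2 libraries, against 60900 and 39600 in untreated ones. In myo-3 libraries it had 348000 and 423000 CPM after oxidation, against 32500 and 35000 before. It rose with both drivers, by 2.34 ± 0.37 with myo-2 and 3.51 ± 0.37 with myo-3 (log2 ± SE of the fit, 2 lines each). The difference was -1.17 ± 0.52, with a 95% interval of -2.20 to -0.15 before adjustment and an adjusted p of 0.0971, and was not called although the lines did not overlap. It was called with RLE size factors (-1.63, adjusted p = 0.0053), with DESeq2 (-1.63, 0.00371), in the fit to the 8 libraries alone (-1.58, 0.00622) and with the line as a replicate block (-1.14, 0.0324). Total counts gave -1.08 (0.117).

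The minor arm behaved otherwise. miR-1-5p had 7420 and 34200 CPM in oxidised myo-2 libraries, against 173 and 480 in untreated ones. With myo-3 it had 1070 and 1220 CPM after oxidation, against 85.3 and 82.4 before. It rose with both drivers, and the difference of 2.23 ± 0.69 (edgeR, adjusted p = 0.0135) went in the direction opposite to that of miR-1-3p. This call rests on single libraries: without 42756 the difference was 0.74 (adjusted p = 0.549), without 42753 it was 1.67 (0.115) and without 49406 it was 2.13 (0.055), while it was 2.94 without 42754 and 3.14 without 42755. It was also lost with RLE size factors (1.74, 0.054), with no filter on low counts (1.75, 0.0591) and in the fit to the 8 libraries alone (1.76, 0.215).

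miR-72, of the family related to miR-31 of mammals, gave the largest shift in the library as a whole. It lies on chromosome II (2452838 to 2452936, plus strand, between genes). Its arm miR-72-5p had 234000 and 415000 CPM in oxidised myo-2 libraries, against 24800 and 35400 in untreated ones. The myo-3 libraries held 4510 and 5870 CPM after oxidation, against 27100 and 29200 before. It made up 23.5% and 30.4% of all counts in oxidised myo-2 libraries, against 0.383% and 0.411% in oxidised myo-3 libraries. The difference was 5.87 ± 0.45 (edgeR, adjusted p = 2.63e-12). The untreated levels of the drivers overlapped. Its partner arm miR-72-3p had 3570 and 6290 CPM in oxidised myo-2 libraries, against 12.7 and 15.9 in oxidised myo-3 libraries, and differed by 8.60 ± 0.58 (adjusted p = 4.94e-13).

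The other members of this family also kept more with myo-2, but fell with both drivers. miR-73-3p had 3490 and 3930 CPM in oxidised myo-2 libraries, against 641 and 600 in oxidised myo-3 libraries, and miR-74-3p had 2620 and 2450 CPM, against 519 and 336. Their differences were 2.84 ± 0.40 and 2.26 ± 0.38. Both hairpins lie in 1 cluster on chromosome X (2368765 to 2372549) with mir-75, which is of another family. Its major arm miR-75-3p had a difference of 1.33 and was not called, whereas its partner arm miR-75-5p was called higher (3.21). All 3 measured members of the miR-72 family were called higher, against 16.5% of all arms tested.

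A set of 4 hairpins that earlier results of these same libraries had pointed to as pharyngeal, mir-236, mir-245, mir-251 and mir-255, was called higher in all 4 major arms, so this count is a description and not independent evidence. miR-236-3p, the most abundant, had 65800 and 108000 CPM in oxidised myo-2 libraries, against 21200 and 24500 in untreated ones. Under the myo-3 driver it had 1500 and 671 CPM after oxidation, against 21500 and 13500 before. Oxidised levels of the drivers were far apart while untreated levels overlapped. The difference was 5.94 ± 0.50, or 6.63 without library 49406. Its partner arm miR-236-5p had 1900 and 4030 CPM in oxidised myo-2 libraries, against 18.2 and 9.6 in oxidised myo-3 libraries (difference 6.45 ± 0.65, or 5.81 without 42756).

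miR-251-5p had 4300 and 6440 CPM in oxidised myo-2 libraries, against 728 and 580 in untreated ones. In myo-3 libraries its level was 52.4 and 64.1 CPM after oxidation, against 615 and 563 before. This hairpin (chromosome X, 11004728 to 11004824, plus strand, between genes) had the largest difference of any arm without a group at 0, in its rare partner arm. miR-251-3p had 276 and 783 CPM in oxidised myo-2 libraries, against 3.5 and 4.93 in untreated ones, and in myo-3 libraries 0.469 and 0.267 CPM after oxidation, against 2.98 and 4.83 before. The differences were 6.38 ± 0.53 for miR-251-5p and 10.31 ± 1.07 for miR-251-3p, the second being 9.37 without 42756. miR-252-5p, its named relative, was at -1.14 ± 0.60 (adjusted p = 0.169) and was called only with RLE size factors (-1.58), with DESeq2 (-1.58), with the replicate block (-1.25) and without library 49407 (-1.99).

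miR-245-3p differed by 3.01 ± 0.52 and its partner arm miR-245-5p by 6.04 ± 0.67, or 5.44 without 42756. The first had 2340 and 2400 CPM in oxidised myo-2 libraries, against 379 and 445 in oxidised myo-3 libraries. miR-255-3p did not rise with myo-2, where its effect was -0.22 ± 0.47, but fell by 4.66 on the log2 scale with myo-3. It had 1420 and 1190 CPM in oxidised myo-2 libraries, against 49.2 and 21.9 in oxidised myo-3 libraries (difference 4.45 ± 0.67, or 5.15 without 49406). Its partner arm miR-255-5p had 11.8 and 28.5 CPM in oxidised myo-2 libraries and was at 0 counts in both oxidised myo-3 libraries. Its effect was at least 80.8-fold higher with myo-2, a bound that covers only the counting error of the group at 0.

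**Figure D3:**
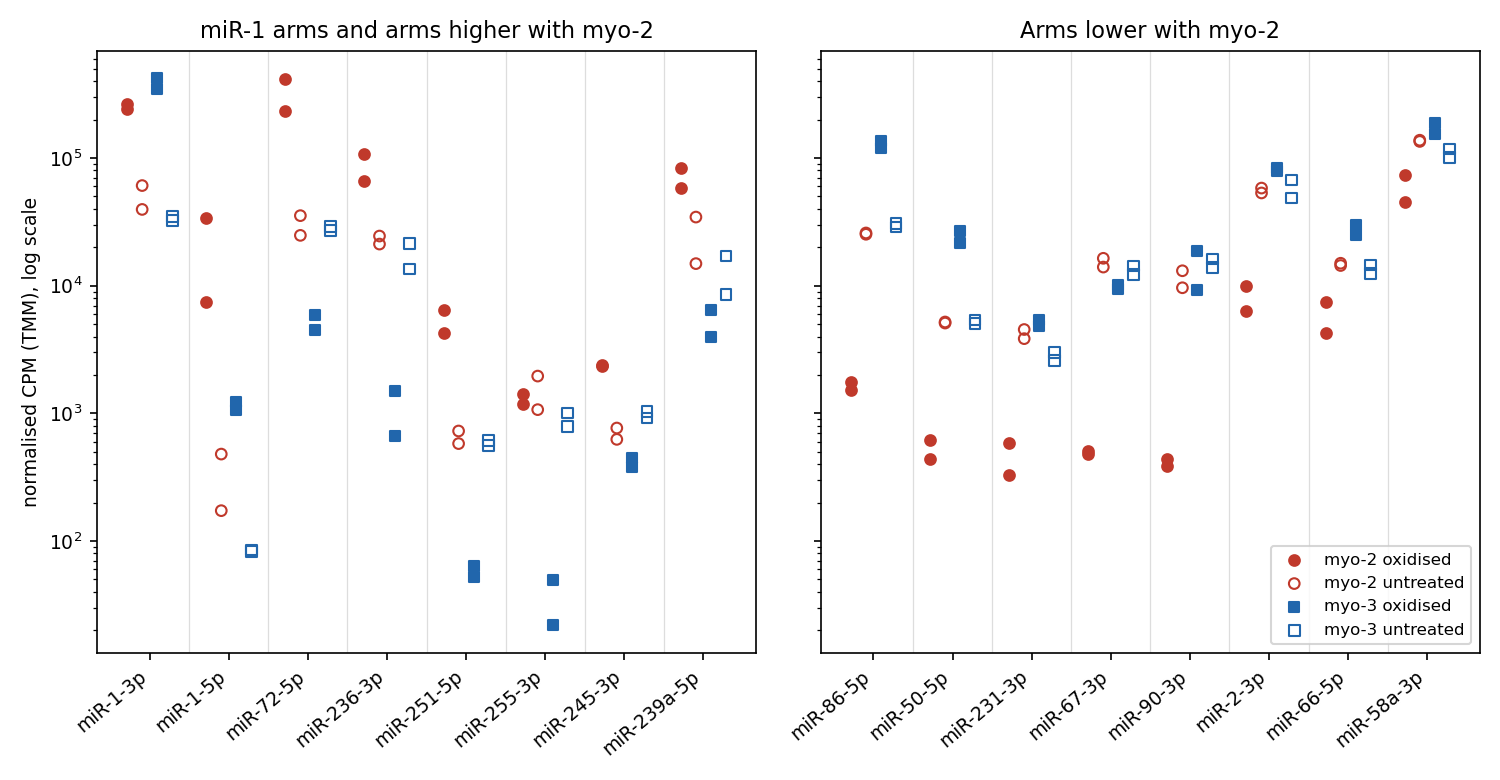
Normalised CPM (log scale) of 16 arms in each of the 8 libraries, 1 point per library and 2 per group, with myo-2 circles left of myo-3 squares and oxidised (filled) left of untreated (open). Untreated levels of the drivers lie close together for most arms, and filled symbols part: miR-251-5p stands at 4300 and 6440 CPM with myo-2 against 52.4 and 64.1 CPM with myo-3, and miR-90-3p at 385 and 439 CPM with myo-2 against 9260 and 18600 CPM with myo-3.

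Further arms were higher with myo-2 outside this set. miR-239a-5p, from a hairpin known for its response to heat stress, was the third most abundant arm in oxidised MLC528 worms. It had 83800 and 58600 CPM in oxidised myo-2 libraries, against 34500 and 14900 in untreated ones. With the myo-3 driver the arm had 6470 and 3990 CPM after oxidation, against 17100 and 8560 before. The difference of 2.82 ± 0.82 (edgeR, adjusted p = 0.0108) was lost without library 42755 (2.34), 49405 (2.24) or 49408 (2.51) and with no filter on low counts (2.43), and was 3.55 without 42753. miR-238-3p rose with myo-2 by 2.03 and had a difference of 1.73 ± 0.45 (adjusted p = 0.00259), which was lost with RLE size factors (1.26), with DESeq2 (1.26), with no filter (1.36) and in the fit to the 8 libraries alone (1.33).

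miR-46-3p and miR-83-3p were retained unequally as well. miR-46-3p had 1940 and 2350 CPM in oxidised myo-2 libraries, against 272 and 274 in oxidised myo-3 libraries (difference 2.82 ± 0.47). Its relative miR-47-3p, at 1.18 ± 0.51, was not called, but was with total counts (1.27), with the replicate block (1.18, adjusted p = 0.0224) and without 42753 (1.54) or 49405 (1.48). miR-83-3p, of the family related to miR-29 of mammals, had 6870 and 9340 CPM in oxidised myo-2 libraries, against 822 and 1320 in oxidised myo-3 libraries. Its difference of 2.08 ± 0.61 (edgeR, adjusted p = 0.00852) was lost without 42755 (1.83), 49406 (1.78) or 49407 (1.32) and in the fit to the 8 libraries alone (1.71). miR-49-3p, of the same family, was at 0.26 ± 0.52 and was not called.

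Rarer arms higher with myo-2 had few counts. miR-253-5p differed by 4.47, or 5.11 without 49408, on 3 counts in oxidised myo-3 libraries, where untreated over oxidised was 2.53 (95% interval 0.707 to 13.8). miR-249-5p was at 0 in oxidised myo-3 libraries, with an effect at least 5.73-fold higher with myo-2, and its call was lost in the fit to the 8 libraries alone (adjusted p = 0.0687) and without 42754 (0.124). miR-784-5p had 3 counts in oxidised myo-2 libraries, all in 42756, and 0 in oxidised myo-3 libraries, too few for a fold. Its call was lost with DESeq2, in the fit to the 8 libraries alone and without 42756, 49406 or 49408 (adjusted p of 1, 0.09 and 0.0789). The near-identical miR-789-1-3p and miR-789-2-3p, which share reads and cannot be told apart, had 238 and 534 CPM for the first in oxidised myo-2 libraries, against 80.3 and 104 in oxidised myo-3 libraries. They differed by 2.40 ± 0.46 each, or 1.70 and 1.69 without 42756.

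Among arms lower with myo-2, miR-86-5p was the most prominent. Its hairpin lies in an intron of Y56A3A.7 on chromosome III (11936637 to 11936734, minus strand). It had 1520 and 1750 CPM in oxidised myo-2 libraries, against 25900 and 25300 in untreated ones. In myo-3 libraries it had 119000 and 137000 CPM after oxidation, against 30600 and 28800 before, and it took 10.1% and 9.59% of oxidised myo-3 counts. The difference was -6.07 ± 0.39 (edgeR, adjusted p = 2.84e-14). Its partner arm miR-86-3p had 10.7 and 3.34 CPM in oxidised myo-2 libraries, against 2470 and 2240 in oxidised myo-3 libraries (difference -6.53 ± 0.77, -7.58 without 42754 and -5.90 without 42756).

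The neighbouring hairpin mir-8211 moved the same way at a far lower level. miR-8211-5p was at 0 in both oxidised myo-2 libraries, against 26.7 and 20.5 CPM in oxidised myo-3 libraries. By the bounds, its effect was at least 20.9-fold lower with myo-2, and that of miR-8211-3p at least 14.4-fold lower. These bounds take the untreated myo-2 counts, 9 and 4, as exact, so the true limits are looser. miR-8211-3p was not called in the fit to the 8 libraries alone (edgeR, adjusted p = 0.0565) or without 42755. miR-67-3p, which earlier results of these libraries had grouped with miR-86-5p as a body wall candidate, had 479 and 511 CPM in oxidised myo-2 libraries, against 16400 and 14000 in untreated ones. With myo-3 it had 10100 and 9470 CPM after oxidation, against 14300 and 12200 before. It fell with myo-2 and was at -0.44 ± 0.34 with myo-3 (difference -4.50 ± 0.48). The third arm of that list, miR-785-3p, was at -1.44 ± 0.77 (edgeR, adjusted p = 0.17) and was called only with RLE size factors or DESeq2 among the alternatives to scaling and tool.

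miR-50-5p and miR-90-3p, of a family related to miR-190 of other animals, were also lower. mir-50 lies in an intron of tln-1, the gene of talin, which ties muscle attachments to the cytoskeleton. miR-50-5p had 440 and 621 CPM in oxidised myo-2 libraries, against 5100 and 5200 in untreated ones. The myo-3 libraries held 21700 and 26700 CPM after oxidation, against 5040 and 5400 before. The 4 untreated libraries were almost equal, and oxidation parted them by -5.49 ± 0.43 (edgeR, adjusted p = 3.3e-12). miR-90-3p had 385 and 439 CPM in oxidised myo-2 libraries, against 9260 and 18600 in oxidised myo-3 libraries (difference -4.68 ± 0.55, or -4.08 without 49408). The third member, miR-62-3p, was at 0.91 ± 0.50 and was not called.

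miR-231-5p had 0.368 and 1.82 CPM in oxidised myo-2 libraries, against 36.9 and 36.2 in untreated ones. Under the myo-3 driver it had 158 and 118 CPM after oxidation, against 29.8 and 26.8 before. The difference was -7.27 ± 0.78, or -6.60 without 42754 and -8.88 without 42756, and the more abundant miR-231-3p differed by -4.07 ± 0.40. Among relatives of let-7, the developmental timing microRNA, miR-794-5p and miR-794-3p were lower with myo-2 by -6.22 ± 0.61 and -7.25 ± 0.92. The second was -6.37 without 42754, and without 42756 its oxidised myo-2 group was at 0. miR-793-3p went the other way, with 574 and 797 CPM in oxidised myo-2 libraries, against 43.7 and 49.9 in oxidised myo-3 libraries, and a difference of 4.32 ± 0.47. Its effect was 0.52 ± 0.33 with myo-2, and it fell by 3.80 on the log2 scale with myo-3. The other 5 let-7 relatives were not called.

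miR-2-3p, from an intron of ppfr-1, was among the abundant arms lower with myo-2. It had 6380 and 9920 CPM in oxidised myo-2 libraries, against 53300 and 58200 in untreated ones. In myo-3 libraries its level was 79500 and 84200 CPM after oxidation, against 67400 and 48700 before. The difference was -3.27 ± 0.41, while miR-71-5p, a lifespan microRNA from the same host gene that is named here after its values were seen, was at -0.90 ± 0.46 (edgeR, adjusted p = 0.147). miR-43-3p, miR-250-3p and miR-797-5p, the other members of the miR-2 family, were not called. miR-58a-3p, related to bantam of flies, had 45300 and 73100 CPM in oxidised myo-2 libraries, against 155000 and 187000 in oxidised myo-3 libraries. It differed by -1.85 ± 0.39 and was the second most abundant arm in both oxidised myo-3 libraries.

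Its family did not move as one. miR-80-3p differed by -3.64 ± 0.55 and miR-81-3p by -1.34 ± 0.47, whereas miR-82-3p was higher with myo-2 by 2.46 ± 0.38. miR-82-3p had 2740 and 4980 CPM in oxidised myo-2 libraries, against 769 and 724 in oxidised myo-3 libraries. miR-58b-3p, with at most 19.1 CPM in any of the 8 libraries, was not called. The call on miR-81-3p was lost without 42754 (-0.87), 42755 (-0.89), 49406 (-1.23) or 49407 (-1.02) and in the fit to the 8 libraries alone (-1.81), and the difference was -2.03 without 42756. mir-81 and mir-82 lie on opposite strands of gid-2.

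**Figure D4:**
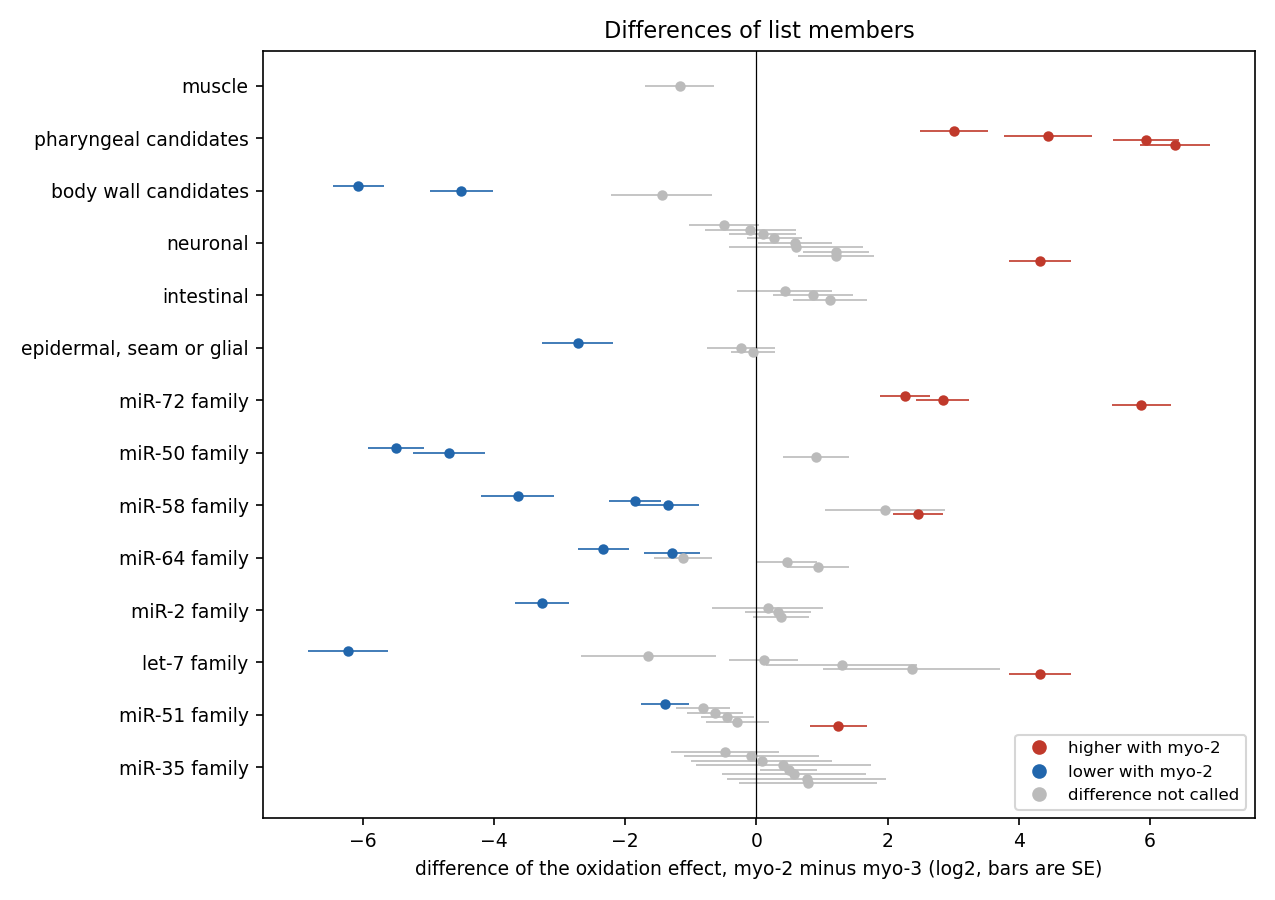
Difference of the oxidation effect (log2, myo-2 minus myo-3, with the SE of the fit) for the major arm of each hairpin in 14 of the lists, 1 point per arm; arms with a group at 0 counts are left out. The miR-72 family and the pharyngeal candidates lie to the right, at 2.26 or above, and the miR-58 family spans -3.64 to 2.46.

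The miR-64 family was partly lower with myo-2. miR-66-5p had 4290 and 7500 CPM in oxidised myo-2 libraries, against 29700 and 24800 in oxidised myo-3 libraries (difference -2.33 ± 0.39). miR-229-5p differed by -1.29 ± 0.43 (edgeR, adjusted p = 0.0202) and lost its call without 42754 (-0.93), 49407 (-1.19) or 49408 (-1.23). miR-64-5p, miR-65-5p and miR-63-3p, at -1.12, 0.46 and 0.94, were not called, though miR-64-5p was called lower under all 6 alternatives of scaling, filter, tool and design (adjusted p from 0.000941 with DESeq2 to 0.0431 with the replicate block) and without 42756. In the miR-51 family, related to miR-100 of mammals and very abundant in untreated worms, miR-52-5p was lower by -1.39 ± 0.37 and miR-54-3p higher by 1.25 ± 0.43, of 6 members, whereas with RLE size factors none was called higher and 3 were called lower (miR-51-5p and miR-55-3p besides miR-52-5p). DESeq2 called these lower and miR-53-5p as well. The call on miR-54-3p was lost with RLE size factors (0.78), DESeq2 (0.78), no filter (0.88) and the 8 libraries alone (0.82). It was also lost without 42755 (1.16), 42756 (1.11), 49405 (1.19) or 49406 (1.11). miR-52-5p, with 8500 and 12000 CPM in oxidised myo-2 libraries and 42600 and 42300 in oxidised myo-3 libraries, fell with both drivers.

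The remaining arms with large differences, among those named by the rule, were rare with myo-2. Outside the rule, miR-1820-3p (-6.51), miR-1820-5p (-4.41) and miR-67-5p (-6.37) were also lower with myo-2. They were called under every alternative run and are given here after their values were seen. miR-2210-3p, from a hairpin that overlaps an exon of ZK593.2, was at 0 in oxidised myo-2 libraries, against 21.9 and 57.2 CPM in oxidised myo-3 libraries, an effect at least 94.1-fold lower. Its partner miR-2210-5p, with 1 count in oxidised myo-2 libraries, had a fitted difference of -7.38 ± 2.25, which was -6.28 without 42756, -8.24 without 49407 and -6.65 without 49408. Without 42754 its oxidised myo-2 group was at 0. Untreated over oxidised was 11.9 with myo-2 for this arm (95% interval 2.02 to 481). miR-359-3p was at least 18.8-fold lower and miR-59-5p at least 9.64-fold lower, with the more abundant miR-59-3p at -5.53 ± 0.62 (-6.15 without 42756). Bounds for miR-2218a-3p, miR-2218a-5p and miR-1828-3p were 7.16-fold, 3.27-fold and 1.72-fold lower. The calls on miR-2218a-5p and miR-1828-3p were lost without 42754 (adjusted p = 0.0865 for both) and without 42756 (0.112 and 0.123), and that on miR-2218a-5p without 42755 (0.0534) or 49406 (0.055).

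Markers of other tissues were set against the 27.6% called among all arms. Of 10 neuronal arms, among them miR-124-3p and lsy-6-3p (a microRNA of the left ASE taste neuron), 1 was called, miR-793-3p as above, with a median difference of 0.43 over the list against 0.33 over all arms. The other 9 fell with both drivers, and of these miR-124-3p and miR-790-5p were called higher with the replicate block (adjusted p = 0.013 and 0.0234), and miR-124-3p also with total counts and without 42753. Summed neuronal arms held 1900 and 2360 CPM in oxidised myo-2 libraries, against 946 and 847 in oxidised myo-3 libraries, and 24800 to 31200 CPM in the untreated libraries of both. miR-2953-3p was at 0 in all 4 oxidised libraries. None of 3 intestinal major arms was called, and together they held 3000 and 3830 CPM in oxidised myo-2 libraries, against 1310 and 825 in oxidised myo-3 libraries and 14600 to 34100 in the untreated libraries of both. The most abundant of them, miR-60-3p, had 2990 and 3820 CPM in oxidised myo-2 libraries, against 1300 and 821 in oxidised myo-3 libraries, and its rare partner miR-60-5p was higher with myo-2 by 2.90 ± 0.69. Outside this list, mir-243, mir-248 and mir-392 had been grouped as intestine-enriched in the same series. Their arms miR-243-3p (2.84), miR-243-5p (3.01), miR-248-3p (2.36) and miR-392-3p (3.45) were called higher with myo-2, so the list does not stand for all intestinal microRNAs. Of 3 epidermal, seam or glial arms, miR-235-3p, which holds larval progenitor cells quiescent, was lower with myo-2 (difference -2.72 ± 0.54). The list summed to 1920 and 2690 CPM in oxidised myo-2 libraries, against 3690 and 2500 in oxidised myo-3 libraries and 28100 to 32900 in the untreated libraries of both. Whether RNA of these tissues has a part in any difference was not tested.

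Some lists, which hold only the major arm of each hairpin, had no called arm, where 27.6% of all arms were called. The miR-35 family of embryonic microRNAs had none of 8 major arms called, with differences from -0.48 to 0.79. All 8 fell with both drivers. No major arm of the miR-44, lin-4 or miR-75 families was called either. Of their minor arms, miR-75-5p (3.21), miR-79-5p (2.13) and miR-61-5p (1.76) were called higher, as was miR-42-5p (1.97) of the miR-35 family. All but miR-75-5p lost the call when certain single libraries were left out. In the miR-44 family DESeq2 called miR-44-3p, miR-45-3p and miR-61-3p lower (adjusted p = 0.0322, 0.0322 and 0.00549), and RLE size factors miR-61-3p. The DESeq2 values of miR-44-3p and miR-45-3p were the same (-0.79 ± 0.31 each), so they may not be separate signals. miR-237-5p of the lin-4 family was called lower with RLE size factors, DESeq2, no filter and the 8 libraries alone. miR-75-3p was called higher without 49405 (adjusted p = 0.0134) or 49406 (0.0472). Of 6 arms that resist oxidation in wild type worms, those of miR-789 were called higher and the other 4 were not called, and all 6 fell with myo-3. miR-62-3p among them fell with both drivers in these henn-1(0) worms, by 2.22 on the log2 scale with myo-2 and 3.12 with myo-3, but rose by 1.82 in wild type worms.

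Partner arms of a hairpin often moved together. Both arms of 178 hairpins were tested. In 37 of these both arms were called the same way, 21 higher and 16 lower, and in 30 only 1 arm was called. Over all 395 arms, 16.5% were called higher and 11.1% lower. In mir-81 the arms were called in opposite directions (miR-81-3p -1.34, miR-81-5p 1.79). The call on miR-81-5p was lost without any 1 of 42753, 42755, 42756, 49405, 49406 and 49408, with differences of 1.22 to 2.12, and that on miR-81-3p as given above. Across these hairpins the differences of the 3p and 5p arms had a Pearson correlation of 0.72 and a Spearman correlation of 0.63, as a description over hairpins that share the same 8 libraries. Hairpins within 10000 bases of each other on 1 strand formed 25 clusters with at least 2 major arms tested. In 4 of them at least 2 arms were called and all called arms went 1 way, where 27.6% of all arms were called. The exception with calls both ways was the cluster of mir-80, mir-238 and mir-90 on chromosome III (8865270 to 8874084, minus strand), where miR-238-3p was higher by 1.73 and both others were lower.

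**Figure D5:**
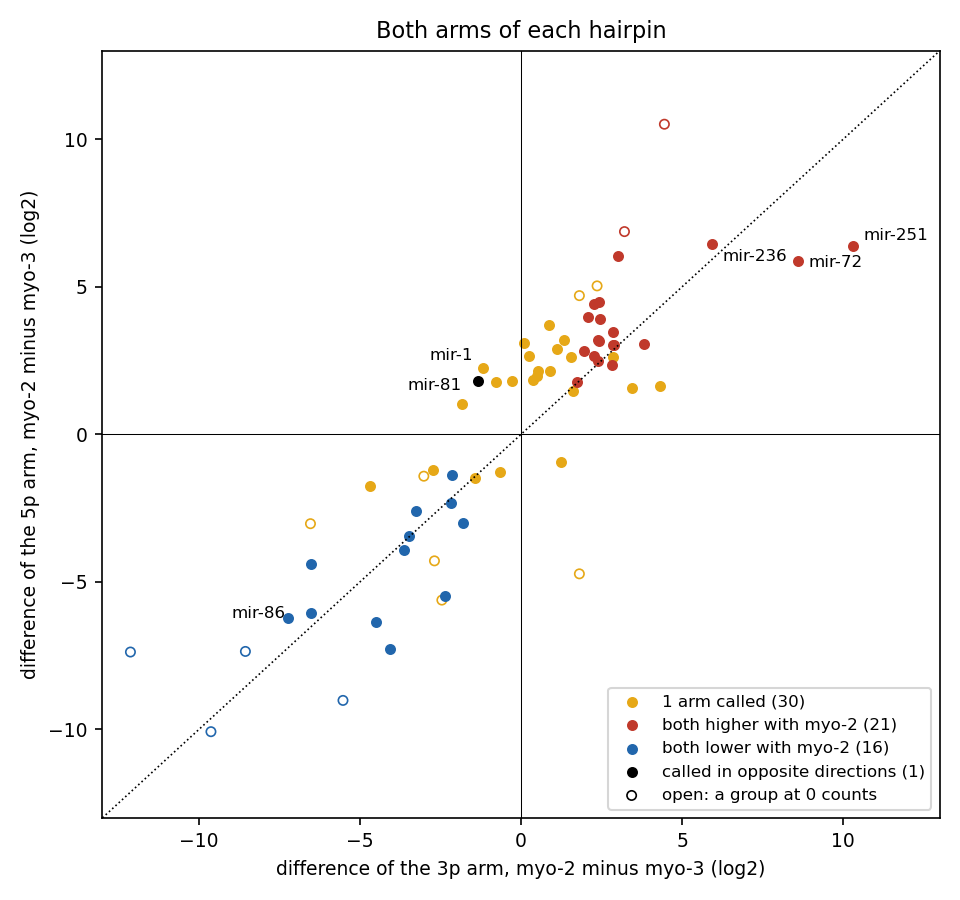
Difference of the oxidation effect (log2, myo-2 minus myo-3) of the 3p arm and the 5p arm of each of the 68 hairpins with at least 1 called arm. Hairpins with both arms called lie in the upper right (21) or lower left (16), mir-81 is the black point with arms called in opposite directions, and the 5p arm of mir-1 was called while its 3p arm was not.

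The same driver was also run in libraries outside the contrast, although these share its fit and its estimate of the spread. These are 4 further libraries from 2 myo-3 lines with henn-1 present. Their replicate labels and library numbers adjoin those of the henn-1(0) myo-3 lines. The labels do not say whether transgenes or preparation are shared, so the counts below are not shown to be independent evidence. Over all 395 arms, 108 rose there on oxidation (27.3%) and 125 fell (31.6%). Of the 17 arms that fell with myo-2 and rose with myo-3 in henn-1(0) worms, 13 rose in these libraries as well and none fell. Of the 12 arms with the opposite calls, 7 fell, 2 rose and 3 were not called. With myo-3, miR-86-5p rose by 2.11 in henn-1(0) worms and by 1.76 with henn-1 present, and miR-50-5p rose by 2.21 in henn-1(0) worms and by 1.89 with henn-1 present. miR-251-5p fell by 3.34 on the log2 scale in henn-1(0) worms and by 1.05 with henn-1 present.

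Drivers for other tissues, in lines that also carried henn-1(0), place the arms further, as values side by side. miR-236-3p rose by 2.18 with elt-2, the intestinal driver, and miR-72-5p by 2.25, whereas miR-251-5p fell by 4.03 and miR-255-3p by 5.13 there. In the oxidised and untreated wild type libraries these 4 arms were at -3.96, -2.49, -0.56 and -4.28. There miR-1-3p, miR-86-5p and miR-50-5p fell by 4.47, 3.61 and 3.72 on the log2 scale. Wild type worms lack Ath-HEN1 but have henn-1, so they differ from these driver lines in both. miR-245-3p had effects of 1.96, 2.04 and 2.45 with the neuronal drivers rab-3, unc-31 and rgef-1. miR-793-3p had an effect of 0.52 with myo-2, against 3.65, 4.60 and 4.93 with these drivers. miR-86-5p was at -4.68 with elt-2 and between -1.43 and -0.36 with the 3 neuronal drivers, and miR-67-3p was at or below -3.96 with all 4 of these drivers. miR-66-5p and miR-58a-3p, lower with myo-2, rose with elt-2 by 1.55 and 1.28.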

How the data were processed

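Small RNA of 18 to 30 nt from whole L1 larvae was sequenced, per the labels. Each library has 1 table deposited by the authors, with an expected count for every mature arm, mostly whole numbers with some fractions (more than 1e-06 from a whole number) where reads are split between arms. The submitters' processing notes name cutadapt 1.2.1, HTSeq 0.6.1p1 and the build WBcel235. An aligner was not given in the sources used here. Per the series' design text, the libraries are biological replicates. Hairpin positions came from an Ensembl annotation of WBcel235, in which 237 of 242 hairpins were matched by name.

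These expected counts were rounded to integers. edgeR 4.0.16 (limma 3.58.1, R 4.3.3) kept 395 arms with a minimum count of 10, scaled libraries with TMM factors and fitted 1 robust quasi-likelihood model with 22 coefficients to all 46 libraries, so that groups of 2 share an estimate of the spread. The contrast was the oxidation effect with myo-2 minus that with myo-3. P-values were adjusted over all 395 arms (Benjamini-Hochberg), with calls at 0.05. The method was tested on simulated data. CPM values use TMM library sizes. Effects per line are log2 CPM with a prior count of 0.5.

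Oxidised and untreated libraries of a driver are paired by transgenic line in the labels. Their deviations from the group means correlated at 0.14 with myo-2 and 0.31 with myo-3. Alternatives were RLE size factors, total counts, no filter, DESeq2 1.42.0, the 8 libraries alone, a replicate block and leaving out each library. For the direct comparison of oxidised libraries these were added after seeing the data.

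Named arms are both arms of mir-1, the 12 largest called differences each way with lines that do not overlap, the 5 most abundant called arms each way, and the major arm (more counts in untreated libraries of all genotypes) of each hairpin in 21 lists of tissues and families; partner arms may stand beside them. Arms and lists were chosen with earlier results of these data known. Intervals and bounds cover counting error only.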

Additional observations from a re-analysis of the deposited data

Results flagged for a closer look

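The oxidation effect differed between the drivers by the test of the difference itself in 109 arms. Those listed here were also called in opposite directions, myo-2 against myo-3, and the values are differences on the log2 scale, myo-2 minus myo-3. Arms that rose with myo-2 and fell with myo-3 were miR-251-3p (10.31), miR-72-3p (8.60), miR-251-5p (6.38), miR-236-3p (5.94), miR-72-5p (5.87), miR-245-3p (3.01), and miR-789-1-3p and miR-789-2-3p, which share reads (2.40 each). miR-255-5p, at 0 in oxidised myo-3 libraries, had a bound of 6.34.

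Arms that fell with myo-2 and rose with myo-3 were miR-2210-5p (-7.38), miR-231-5p (-7.27), miR-794-3p (-7.25), miR-86-3p (-6.53), miR-794-5p (-6.22), miR-86-5p (-6.07), miR-50-5p (-5.49), miR-66-5p (-2.33) and miR-58a-3p (-1.85). miR-2210-3p, miR-8211-5p and miR-59-5p, at 0 in oxidised myo-2 libraries, had bounds on the difference of -6.56, -4.39 and -3.27. With 9 untreated myo-2 counts, the bound on the oxidation effect of miR-8211-5p with myo-2 was 0.17, which does not reach a fall.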

How the results depend on the processing

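Of the 109 called arms, 72 were called the same way under every alternative run (39 higher and 33 lower with myo-2), and no named arm reversed. The replicate block gave 120 calls, 107 of them shared, and moved no call of a named arm apart from the 6 given in the report. Fitting the 8 libraries alone gave 42 arms higher with myo-2 in place of 65. DESeq2 gave 68 lower in place of 44. RLE size factors gave 51 higher and 66 lower. Between untreated libraries DESeq2 called 1 arm, and leaving out each library gave 0 to 1. Leaving out each library gave 90 to 103 called differences. No paired value was computed for the untreated contrast. The cause of these shifts was not tested. The 2711940 counts of the shallowest oxidised library limit what can be said of arms at or near 0.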

Other observations

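Minor arms, the rarer strand of each hairpin, were counted apart from major arms. Of 179 minor arms tested, 34 were higher with myo-2 (19%) and 16 lower (8.94%), against 31 higher (14.4%) and 28 lower (13%) of 216 major arms. Over all arms 16.5% were higher and 11.1% lower. With RLE size factors the minor arms divided into 25 higher and 22 lower and the major arms into 26 and 44. In 12 hairpins the minor arm was called higher while the major arm was not called, and in none was it called lower. Several of these 12 calls rest on single libraries. Without 42754 the differences were 0.83 for miR-42-5p, 0.64 for miR-43-5p and -0.25 for miR-76-5p. Without 42756 they were 0.96 for miR-56-5p and 1.16 for miR-79-5p. By contrast, miR-49-5p, miR-60-5p and miR-75-5p were called under every alternative run. The count of 12 was not repeated with RLE size factors. Minor arms had a median oxidation effect of -0.46 with myo-2 and -0.86 with myo-3, against -2.69 and -2.34 for major arms. In wild type worms, which lack Ath-HEN1 but have henn-1, the medians were -0.72 for minor and -3.25 for major arms.

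Some arms outside the rule for naming are given as values, chosen after they were seen. miR-243-3p and miR-243-5p rose with both drivers and were higher with myo-2 by 2.84 ± 0.50 and 3.01 ± 0.57. The first had 1730 and 2390 CPM in oxidised myo-2 libraries, against 450 and 521 in oxidised myo-3 libraries. miR-392-3p and miR-248-3p were higher with myo-2 by 3.45 ± 0.59 and 2.36 ± 0.56. miR-57-5p, related to miR-10 of other animals, was lower with myo-2 by -3.01 ± 0.37, with 280 and 449 CPM in oxidised myo-2 libraries, against 4800 and 5180 in oxidised myo-3 libraries. miR-787-3p fell with myo-2 and rose with myo-3, with a difference of -3.47 ± 0.61.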
